A study of Mus musculus with 9 samples.

Results

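The mucin and surface glycosylation genes were the 89 genes, of 15158 listed, whose symbols match a fixed set of stems: the mucins (Muc followed by a digit, without Muc4), the Galnt, Gcnt, Mgat, B3gnt, B3galt, B4galt, Fut, St3gal, St6gal and St8sia glycosyltransferases, C1galt1, and the Chst sulfotransferases. The rule reads symbols alone. They were measured by RNA-seq in luminal epithelium, the sheet of cells that lines the uterine cavity, laser-captured from mouse uteri on pregnancy day 4. The ePRAoe mice were Wnt7acre/+PgrALsL/+ and the ePRBoe mice Wnt7acre/+PgrBLsL/+, set against Wnt7acre mice, with 3 libraries in each group. Every group, the controls included, carried the Wnt7a-Cre driver, which is active in the epithelium of the uterus. In the other 2 groups Cre removes a stop cassette and so switches on progesterone receptor isoform A (ePRAoe) or isoform B (ePRBoe). Females were housed to 8 weeks old before mating. The labels do not say whether a library came from 1 animal or from a pool, so p-values measure the spread between these libraries.

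Mucins are proteins whose extracellular stretches are densely covered with sugar chains. On the luminal epithelium they form the surface that an embryo meets, and Muc1, which spans the membrane, is known there as an anti-adhesive barrier. The chains are built in the Golgi by enzymes that each add 1 sugar in 1 linkage: Galnt enzymes start an O-linked chain, C1galt1 and Gcnt enzymes form and branch its core, Mgat enzymes branch N-linked chains, B3gnt, B3galt and B4galt enzymes lengthen both, and Fut, sialyltransferase and Chst enzymes cap them with fucose, sialic acid or sulfate. Progesterone receptor is a ligand-activated transcription factor, and day 4 is the time at which the mouse uterus becomes ready for attachment.

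Promoters are shown for the genes around which the choice of this group was built, Muc1 and B3gnt5, and for 3 of the genes that passed the test in both overexpressing genotypes, Chst2, Galnt10 and Chst12; Galnt18, the fourth, had no entry. Each is 300 bases from RefSeq, GRCm38.p6, running 5′ to 3′ on the gene's strand, 250 bases before the RefSeq transcription start and 50 from it on. They lie at chr3:89228806-89229105 (plus strand) for Muc1, chr16:19759984-19760283 (plus) for B3gnt5, chr9:95407221-95407520 (minus) for Chst2, chr11:57645192-57645491 (plus) for Galnt10 and chr5:140505359-140505658 (plus) for Chst12. Capitals mark, on either strand, the AGAACA element (TGTTCT on the other strand) recognised by progesterone and glucocorticoid receptors, the TATAAA box and the GGGCGG GC box.

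Muc1: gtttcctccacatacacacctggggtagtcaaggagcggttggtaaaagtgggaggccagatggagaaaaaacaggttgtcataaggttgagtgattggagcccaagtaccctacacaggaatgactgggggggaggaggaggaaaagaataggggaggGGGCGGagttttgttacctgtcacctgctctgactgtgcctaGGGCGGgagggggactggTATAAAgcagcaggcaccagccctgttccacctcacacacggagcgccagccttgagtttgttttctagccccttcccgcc

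B3gnt5: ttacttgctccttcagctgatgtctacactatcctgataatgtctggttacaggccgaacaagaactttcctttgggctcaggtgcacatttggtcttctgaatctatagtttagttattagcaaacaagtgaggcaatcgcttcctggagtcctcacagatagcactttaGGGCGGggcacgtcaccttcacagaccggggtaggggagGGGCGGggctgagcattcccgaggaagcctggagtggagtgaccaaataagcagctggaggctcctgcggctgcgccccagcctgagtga

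Chst2: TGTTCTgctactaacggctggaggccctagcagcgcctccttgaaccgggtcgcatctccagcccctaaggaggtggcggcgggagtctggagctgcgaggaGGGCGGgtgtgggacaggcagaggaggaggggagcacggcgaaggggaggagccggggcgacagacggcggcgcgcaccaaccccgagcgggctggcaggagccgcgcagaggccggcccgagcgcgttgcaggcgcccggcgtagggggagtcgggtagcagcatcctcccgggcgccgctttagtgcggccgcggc

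Galnt10: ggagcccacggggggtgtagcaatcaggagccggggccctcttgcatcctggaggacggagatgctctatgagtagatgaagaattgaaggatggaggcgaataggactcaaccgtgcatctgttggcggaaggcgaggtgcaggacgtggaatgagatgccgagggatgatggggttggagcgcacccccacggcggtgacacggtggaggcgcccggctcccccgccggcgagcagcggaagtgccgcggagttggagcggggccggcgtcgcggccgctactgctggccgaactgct

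Chst12: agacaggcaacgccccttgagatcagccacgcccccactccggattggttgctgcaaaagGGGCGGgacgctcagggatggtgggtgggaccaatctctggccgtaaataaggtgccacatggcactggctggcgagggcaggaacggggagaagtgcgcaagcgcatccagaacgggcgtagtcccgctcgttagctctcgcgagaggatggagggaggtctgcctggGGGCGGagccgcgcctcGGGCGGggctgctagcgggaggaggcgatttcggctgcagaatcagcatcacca

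The Muc1 window held 1 TATAAA box, at position 220, and 2 GC boxes, at 160 and 202. The B3gnt5 window held GC boxes at 172 and 211, and the Chst12 window held them at 61, 230 and 247. The Chst2 window opened with the AGAACA element, at position 1, and had a GC box at 103. This window lies wholly before the start of Chst2 in the GENCODE M21 annotation, where the gene spans chr9:95399292-95406722 on the minus strand. The Galnt10 window held none of the 3 motifs. Of 88 promoters listed for 65 of the 89 genes, 15 (17%) held the AGAACA element, against 19.0% of all 32851 promoters. The TATAAA box stood in 4 (4.55%) of them, against 13.6% of all promoters, and the GC box in 52 (59.1%), against 35.7%. A match describes the letters in the window and not binding.

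The libraries held 11074 to 12300 genes at 1 FPKM (fragments scaled to transcript length and library total) or more. The tables hold FPKM values alone, so the read depth behind them is unknown and no counting interval is given. Pgr had 41.7, 49.5 and 42.8 FPKM in ePRAoe libraries and 38.1, 38.3 and 45.9 FPKM in ePRBoe libraries, against 17.4, 3.82 and 6.62 FPKM in Wnt7acre libraries, with no overlap between either genotype and the controls. Luminal markers summed to 1746 to 2466 FPKM in ePRAoe, 2112 to 2353 in ePRBoe and 2173 to 2463 in Wnt7acre libraries, with 2 of the 14 called higher and 3 lower in ePRAoe, and 1 lower in ePRBoe. Markers of other cells moved with genotype: the 14 stromal ones summed to 218 to 388 FPKM in ePRAoe, 390 to 533 in ePRBoe and 85.9 to 121 in Wnt7acre libraries, and 10 and 12 of them were called higher in ePRAoe and ePRBoe. The 7 gland markers summed to 294 to 566 FPKM in ePRAoe, 238 to 300 in ePRBoe and 77.5 to 282 in Wnt7acre libraries. Of the 4 tested, 2 were called higher and 1 lower in ePRAoe. The 11 immune markers summed to 120 to 143 FPKM in ePRAoe, 353 to 416 in ePRBoe and 163 to 368 in Wnt7acre libraries; 4 were called lower in ePRAoe and 6 higher in ePRBoe. The 8 endothelial markers summed to 16.3 to 33.3 FPKM in ePRAoe, 50.3 to 74.0 in ePRBoe and 15.1 to 22.5 in Wnt7acre libraries. Of the 7 tested, 2 were called higher in ePRBoe. The 6 smooth muscle markers summed to 16.6 to 30.2 FPKM in ePRAoe, 38.0 to 119 in ePRBoe and 11.7 to 21.5 in Wnt7acre libraries. Of the 4 tested, 1 was called higher in ePRBoe. Over all tested genes, 7.2% were called higher and 8.98% lower in ePRAoe, and 6.41% higher and 2.48% lower in ePRBoe. No marker was at 0 in all 9 libraries. Their part in the results that follow was not tested, and fewer cells of a type and less RNA per cell cannot be told apart in these samples.

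Of the 89 genes, 45 reached 1 FPKM in all 9 libraries and 13 stayed under it in all 9. Testing covered the 68 that had 1 FPKM or more in at least 3 libraries and left out 21, among them the gel-forming mucins Muc2, Muc5ac and Muc5b. Of the tested genes, 11 had every library of 1 genotype under 1 FPKM, and none reached 1 FPKM in a single group only. The transcripts of a few enzymes made up most of the signal: 10 genes had a mean of at least 30 FPKM over the 9 libraries and together took 55.5% of the FPKM of all 89. By the mean of all 9 libraries these were the branching and chain-extending enzymes Gcnt1 (69.0 FPKM), B4galt1 (66.6), Gcnt2 (65.8) and Gcnt3 (65.3), with St3gal1 (59.6), B4galt6 (59.1), Galnt1 (56.3), St6galnac2 (46.7), Muc1 (43.7) and C1galt1 (36.3). The order differed by group: the highest mean was that of Gcnt3 in ePRAoe (108 FPKM), of B4galt1 in ePRBoe (73.2 FPKM) and of St3gal1 in Wnt7acre (83.9 FPKM). Summed over the 89 genes, the level was 1227, 1137 and 1001 FPKM in ePRAoe libraries and 1011, 1049 and 976.8 FPKM in ePRBoe libraries, against 990.7, 884.7 and 936.5 FPKM in Wnt7acre libraries. The ePRAoe libraries were all above the controls, and 1 ePRBoe library was below the highest control.

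In ePRAoe epithelium, 13 of the 68 tested genes rose and 10 fell against Wnt7acre (adjusted p under 0.05, limma on log2(FPKM + 1) with sequencing run as a term, Benjamini-Hochberg over 12347 genes). That is 33.8% of the tested group, against a background of 16.2% of all tested genes called, 7.2% higher and 8.98% lower. The genes that rose were Galnt1, Galnt10, Galnt18, Gcnt2, Gcnt3, B3gnt5, B4galt1, St3gal2, St6gal1, St6galnac1, St6galnac2, St8sia5 and Chst2. Those that fell were Muc20, Galnt3, Galnt6, Mgat2, Mgat4a, Mgat5, B3gnt2, St3gal1, Chst12 and Chst14. In ePRBoe epithelium 5 genes rose (Galnt10, Galnt18, St6galnac4, St6galnac6 and Chst2) and 1 fell (Chst12), 8.82% of the tested group against a background of 8.89%, of which 6.41% higher and 2.48% lower. That share is near the background and is no result about the group as a whole. The median absolute log2 fold change of the 68 genes was 0.62 in ePRAoe, against 0.29 over all tested genes, and 0.52 in ePRBoe, against 0.31. The signed medians were -0.04 in ePRAoe, against -0.03 over all tested genes, and 0.19 in ePRBoe, against 0.10. The libraries of the 2 groups did not overlap for 33 genes (48.5%) between ePRAoe and Wnt7acre, against 28.9% of all tested genes, and for 30 genes (44.1%) between ePRBoe and Wnt7acre, against 39.8%. Both genotypes are compared with the same 3 Wnt7acre libraries. Counts within a family cover few genes and describe those genes alone.

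Between ePRBoe and ePRAoe directly, 0 of the 68 genes passed limma's test, against a background of 0.324% (40 genes), 0.316% higher and 0.0081% lower in ePRBoe. At an unadjusted p under 0.05 there were 17 (25%), against 18.7% of all tested genes. The libraries of ePRBoe and ePRAoe did not overlap for 12 genes (17.6%), against 22.6% of all tested genes; they were higher in ePRBoe for 10, against 16.8%, and lower for 2, against 5.8%. A gene called in 1 genotype and not in the other is therefore not shown to differ between them unless its own test says so, and none of these did. The comparison rests mainly on run 1, which holds all ePRBoe libraries and 1 ePRAoe library, replicate 2. Over all tested genes, the 40 calls became 0 without ePRAoe replicate 2 and 540 without ePRAoe replicate 1.

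Of the 23 calls in ePRAoe, 8 held with any 1 library left out: Muc20, Galnt10, Galnt18, Gcnt3, B3gnt2, B3gnt5, Chst2 and Chst12. These fits are not separate checks. In this comparison, leaving out the ePRAoe or the Wnt7acre library of the same run gave the same change. Leaving out an ePRBoe library did not move the change and altered only the spread. Of these 8, Muc20, Galnt10, Gcnt3 and B3gnt2 also held under every other setting that tested them; Muc20 was not tested with a mean of at least 5 FPKM. With only the ePRAoe and Wnt7acre libraries fitted, the adjusted p was 0.0790 for B3gnt5, 0.118 for Chst12 and 0.0695 for Galnt18; in run 1 alone it was 0.0601 for Chst12 and 0.0542 for Chst2, and with no run term 0.0528 for Chst12. Of the 6 calls in ePRBoe, Galnt18 alone held with any 1 library left out. The libraries that decide each of the others are named with the gene.

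**Figure D1:**
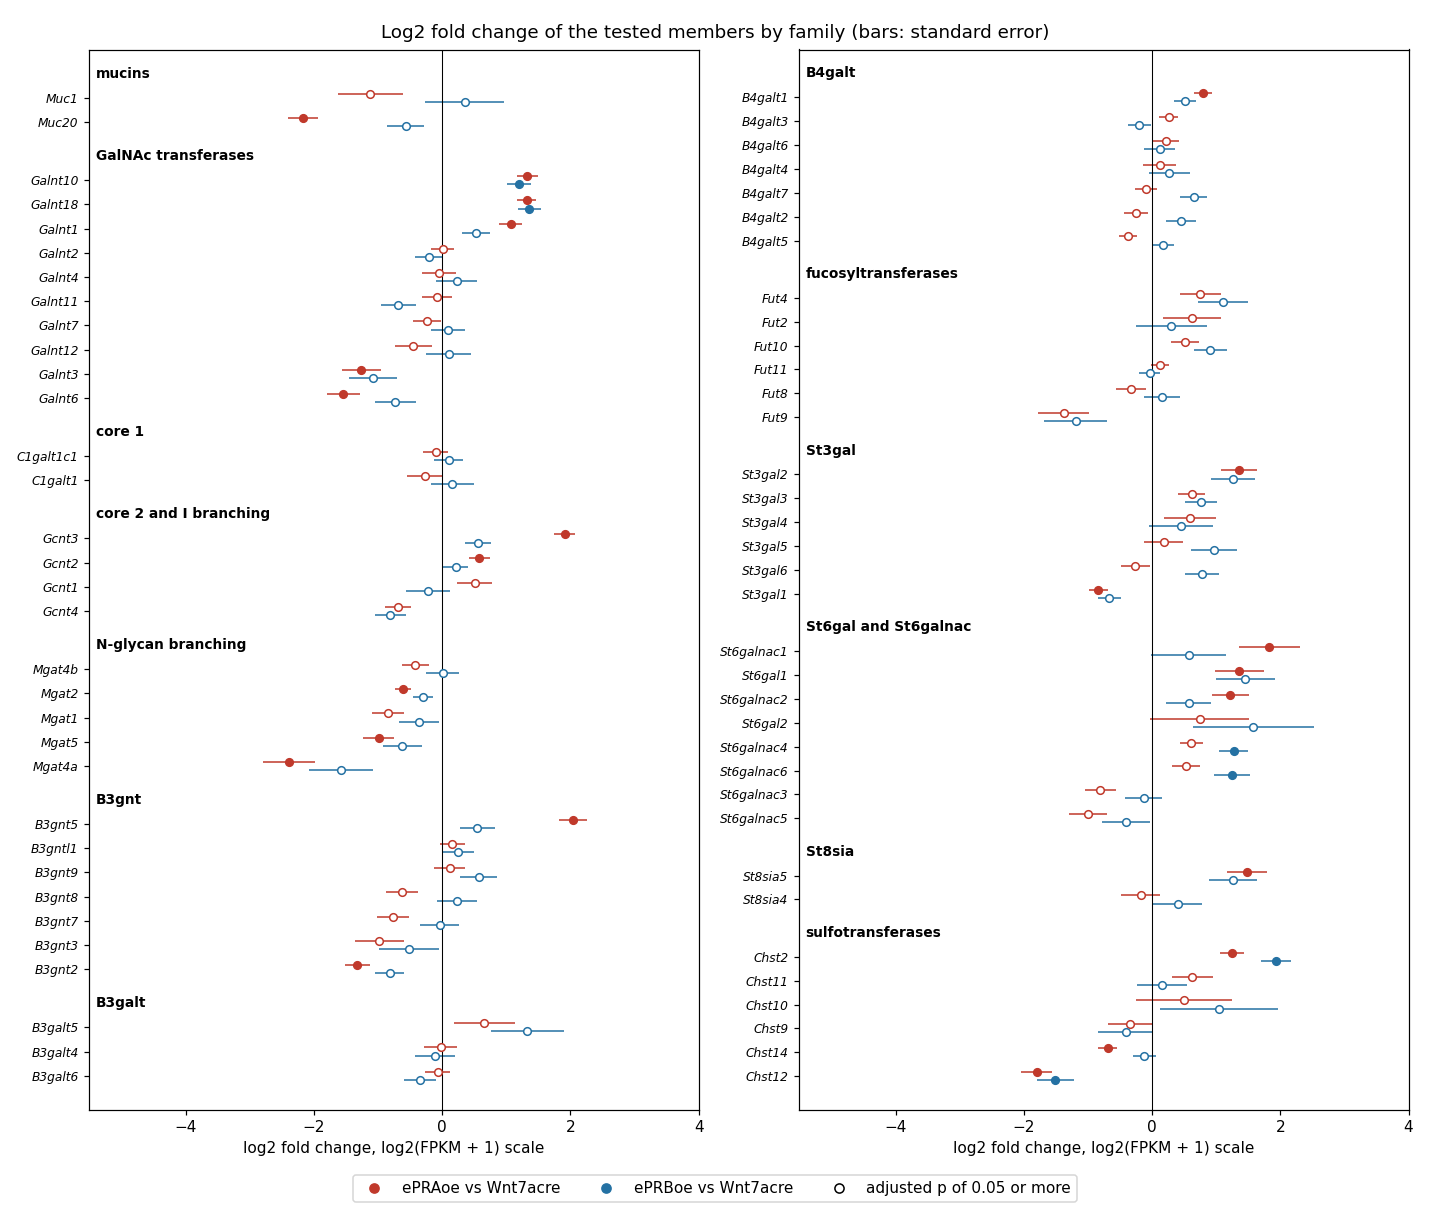
Log2 fold change on the log2(FPKM + 1) scale (horizontal axis) of the 68 tested genes, grouped by enzyme family, for ePRAoe (red) and ePRBoe (blue), each against Wnt7acre; bars are standard errors and filled points have an adjusted p under 0.05. The filled red points number 13 to the right of 0 and 10 to the left, the filled blue points 5 and 1.

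Of the 7 mucin genes, 2 were tested. Muc1 had 80.3, 7.42 and 19.9 FPKM in ePRAoe libraries and 48.5, 51.4 and 24.3 FPKM in ePRBoe libraries, against 71.0, 36.7 and 53.5 FPKM in Wnt7acre libraries. The ePRAoe libraries held both the highest and the lowest values of all 9, and the groups overlapped. The test called no difference: the log2 fold change was -1.12 ± 0.51 (SE) in ePRAoe (adjusted p = 0.174 by limma) and 0.35 ± 0.62 in ePRBoe (adjusted p = 0.768). Between ePRBoe and ePRAoe it was 1.47 ± 0.62 (adjusted p = 0.259). The ePRAoe difference was not the same in the 3 sequencing runs, where run and single library cannot be told apart. On the log2(FPKM + 1) scale, ePRAoe minus Wnt7acre was -2.69 in run 1, -0.85 in run 2 and 0.18 in run 3, each from 1 library of either group. Without ePRAoe replicate 1, the library of run 3, the change was -1.77 with an adjusted p of 0.0476 by limma. Leaving out Wnt7acre replicate 1 instead, its partner in that run, is in effect the same fit (-1.77, adjusted p = 0.0478). Leaving out a library of run 1 did the opposite: without ePRAoe replicate 2 or Wnt7acre replicate 3 the change was -0.34 (adjusted p = 0.657 by limma). The sign of the ePRBoe difference also depended on the libraries used: it was -0.43 within run 1, the only run that held ePRBoe libraries, and 1.92 (adjusted p = 0.175 by limma) without Wnt7acre replicate 3, the control of that run.

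Muc20, a smaller membrane mucin, had 0.284, 0.035 and 0.870 FPKM in ePRAoe libraries and 3.30, 1.74 and 2.77 FPKM in ePRBoe libraries, against 3.35, 7.79 and 4.90 FPKM in Wnt7acre libraries. Every ePRAoe library lay under 1 FPKM and below every library of the other groups. Muc20 fell in ePRAoe by 2.17 ± 0.24 on the log2(FPKM + 1) scale (adjusted p = 0.00243), a scale that understates the change of so low a gene. It did not pass the test in ePRBoe (-0.57 ± 0.29, adjusted p = 0.273 by limma) although all 3 ePRBoe libraries lay below the lowest control. The difference between ePRBoe and ePRAoe was 1.60 ± 0.29 (adjusted p = 0.0706 by limma), with an adjusted p of 0.0367 to 0.632 when 1 library was left out; it passed where ePRAoe replicate 1 or Wnt7acre replicate 1 was the one left out, and was lowest, at 1.26, without ePRAoe replicate 2. Of the exonic length of Muc20, 15.6% lies over exons of the neighbouring mucin gene Muc4 on the opposite strand, and the sources used here do not say whether reads were counted by strand. Muc4 itself averaged 3.30 ± 0.811 FPKM in ePRAoe and 3.85 ± 0.933 FPKM in ePRBoe, against 11.6 ± 4.62 FPKM in Wnt7acre libraries (SD, n = 3 each), with a log2 fold change in ePRAoe of -1.51 (adjusted p = 0.00690 by limma).

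The other 5 mucins were not tested. Muc5b, a gel-forming mucin, had 8.41 FPKM in Wnt7acre replicate 1 and at most 0.071 FPKM in the other 8 libraries. Muc13, which spans the membrane, had 0.999 FPKM in that same library, 0.051 FPKM in Wnt7acre replicate 2 and was listed at 0 in all others. Muc5ac (0.384 FPKM) and Muc15 (0.603 FPKM) also had their highest value there, whereas Muc2 was listed at 0 in it. That single control library had the highest value of 4 of the 5.

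**Figure D2:**
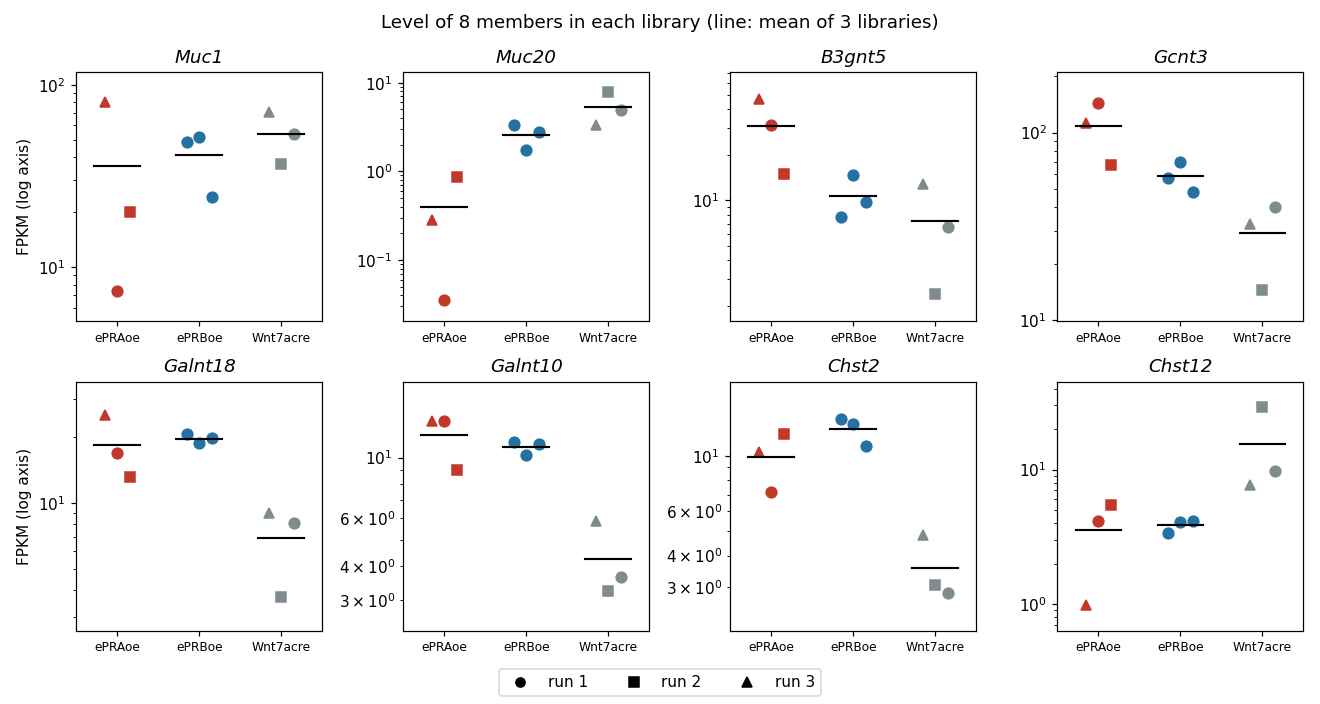
FPKM (log axis) of 8 genes in each library of ePRAoe, ePRBoe and Wnt7acre, with marker shapes for the 3 sequencing runs and lines for the mean of 3 libraries. Muc1 overlaps between all groups, Muc20 is under 1 FPKM in all 3 ePRAoe libraries, and Galnt18, Galnt10, Chst2 and Chst12 separate both genotypes from Wnt7acre.

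O-linked chains are started by the Galnt enzymes, which attach N-acetylgalactosamine to serine or threonine. Of 10 tested, 3 rose and 2 fell in ePRAoe, against 7.2% and 8.98% of all tested genes, and 2 rose in ePRBoe, against 6.41%. Galnt18 had 25.3, 16.97 and 13.1 FPKM in ePRAoe libraries and 20.7, 18.8 and 19.8 FPKM in ePRBoe libraries, against 8.99, 3.71 and 8.08 FPKM in Wnt7acre libraries. Both genotypes stood above every control. The log2 fold change was 1.32 ± 0.15 in ePRAoe (adjusted p = 0.00267 by limma) and 1.36 ± 0.18 in ePRBoe (adjusted p = 0.00831), and both calls held with any 1 library left out. Galnt10 had 13.6, 13.6 and 8.99 FPKM in ePRAoe libraries and 11.4, 10.2 and 11.2 FPKM in ePRBoe libraries, against 5.85, 3.23 and 3.64 FPKM in Wnt7acre libraries. Again no library overlapped, with log2 changes of 1.33 ± 0.16 in ePRAoe (adjusted p = 0.00304 by limma) and 1.20 ± 0.19 in ePRBoe (adjusted p = 0.0124). The Galnt10 call in ePRBoe rested on Wnt7acre replicate 3 (adjusted p = 0.137 without it).

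Galnt1, the most abundant of the family, averaged 75.1 ± 15.9 FPKM in ePRAoe and 57.5 ± 3.53 FPKM in ePRBoe, against 36.4 ± 13.7 FPKM in Wnt7acre libraries (SD, n = 3 each). It rose in ePRAoe by 1.07 on the log2 scale (adjusted p = 0.00909); in ePRBoe the difference was 0.53 (adjusted p = 0.186). Galnt3 and Galnt6 went the other way. Galnt3 averaged 3.37 ± 0.652 FPKM in ePRAoe, against 9.85 ± 3.80 FPKM in Wnt7acre libraries, a log2 fold change of -1.26 (adjusted p = 0.0306). Galnt6 averaged 0.769 ± 0.929 FPKM in ePRAoe, against 3.90 ± 1.55 FPKM in Wnt7acre libraries, a log2 fold change of -1.54 (adjusted p = 0.00939); its exons overlap those of the antisense gene Galnt6os over 11.4% of their length. All 3 calls were lost without ePRAoe replicate 2 or 3 or Wnt7acre replicate 2 or 3, with adjusted p up to 0.0617 for Galnt1, 0.153 for Galnt3 and 0.0618 for Galnt6. The other 5 tested enzymes, Galnt2, Galnt4, Galnt7, Galnt11 and Galnt12, had log2 differences between -0.68 and 0.23 in either genotype, with adjusted p of 0.178 or more.

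The core of the O-linked chain is then made by C1galt1, which adds galactose and needs the chaperone C1galt1c1. Neither passed the test: C1galt1 averaged 32.4 ± 17.9 FPKM in ePRAoe and 41.0 ± 3.41 FPKM in ePRBoe, against 35.3 ± 0.705 FPKM in Wnt7acre libraries, and C1galt1c1 averaged 18.1 ± 2.16 FPKM in ePRAoe and 19.2 ± 4.78 FPKM in ePRBoe, against 19.4 ± 2.75 FPKM in Wnt7acre libraries (SD, n = 3 each). The Gcnt enzymes add the N-acetylglucosamine branches, and of 4 tested 2 rose in ePRAoe, against 7.2% of all tested genes. Gcnt3, the mucin-type branching enzyme, had 112.8, 144.6 and 67.5 FPKM in ePRAoe libraries and 57.2, 70.1 and 48.5 FPKM in ePRBoe libraries, against 32.6, 14.4 and 40.3 FPKM in Wnt7acre libraries. No library of either genotype overlapped the controls, and the ePRAoe and ePRBoe libraries overlapped at 1 point, where 67.5 FPKM lay below 70.1 FPKM. The log2 fold change was 1.91 ± 0.17 in ePRAoe (adjusted p = 0.00170 by limma) and 0.56 ± 0.20 in ePRBoe (adjusted p = 0.133). ePRBoe against ePRAoe gave -1.35 ± 0.20 (adjusted p = 0.0572 by limma). It passed without ePRAoe replicate 1 (0.0324) or Wnt7acre replicate 1 (0.0325), and with median-of-ratios scaling (0.0496). Without ePRAoe replicate 2 the adjusted p was 0.5, and with no run term the difference was -0.82 (0.337). In run 1 alone, which holds 1 ePRAoe library, the difference was -1.3.

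Gcnt1, which makes the same branch on most O-linked chains, averaged 85.1 ± 17.5 FPKM in ePRAoe and 60.1 ± 9.04 FPKM in ePRBoe, against 61.7 ± 22.7 FPKM in Wnt7acre libraries, and passed no test (adjusted p = 0.244 in ePRAoe by limma). Gcnt2, which branches lactosamine chains into the I antigen, averaged 78.8 ± 13.5 FPKM in ePRAoe and 66.2 ± 5.77 FPKM in ePRBoe, against 52.2 ± 6.68 FPKM in Wnt7acre libraries. It rose by 0.58 on the log2 scale in ePRAoe with an adjusted p of 0.0494 by limma, and leaving out any of 7 libraries, all but ePRAoe replicate 1 and Wnt7acre replicate 1, ended the call (adjusted p up to 0.199). The call was also lost with no filter, with a mean of at least 5 FPKM and with median-of-ratios scaling. It was lost too with no variance trend, with only the 2 groups and in run 1 alone. Outside run 1 alone, the adjusted p by limma was at most 0.117 in these fits. Summed over the family, the Gcnt transcripts reached 244, 337 and 240 FPKM in ePRAoe libraries and 169, 212 and 179 FPKM in ePRBoe libraries, against 171, 100 and 167 FPKM in Wnt7acre libraries. The ePRAoe sums all lay above those of the other groups.

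**Figure D3:**
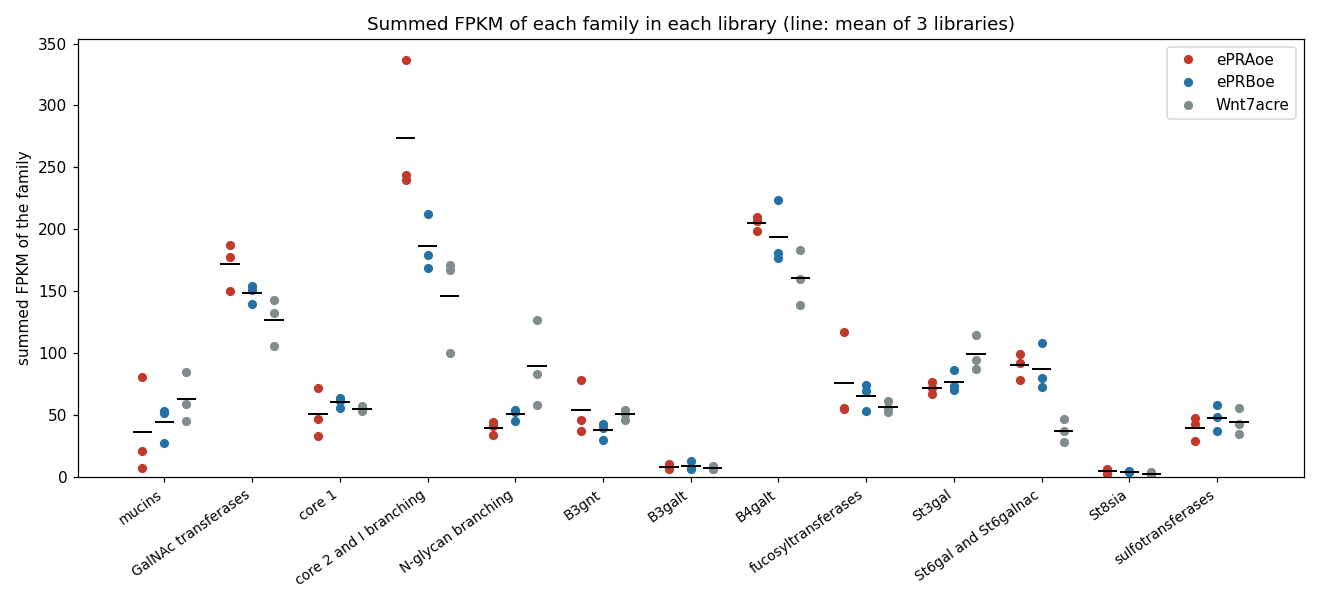
Summed FPKM of each family (vertical axis) in each library of ePRAoe, ePRBoe and Wnt7acre, left to right within a family, with lines for the mean of 3 libraries. The Gcnt sums are 240 to 337 FPKM in ePRAoe, the Mgat sums are lowest in ePRAoe, and the St6gal and St6galnac sums of both genotypes lie above the highest Wnt7acre library, at 46.8 FPKM. In ePRBoe replicates 1 and 2, the single gene St6gal2 supplied 57.0 and 31.2 FPKM of those sums.

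Of 5 tested N-linked branching enzymes, 3 fell in ePRAoe and none rose, against 8.98% lower and 7.2% higher of all tested genes, and none passed in ePRBoe. With so few genes this describes these enzymes and no more. The family's summed level was 44.6, 34.1 and 40.8 FPKM in ePRAoe libraries and 54.0, 52.8 and 45.2 FPKM in ePRBoe libraries, against 58.4, 127 and 83.4 FPKM in Wnt7acre libraries, with no overlap with the controls. Mgat4a, which adds the branch on the first arm of complex chains, averaged 4.31 ± 2.01 FPKM in ePRAoe and 6.37 ± 2.08 FPKM in ePRBoe, against 28.3 ± 15.7 FPKM in Wnt7acre libraries. Its log2 fold change was -2.39 ± 0.41 in ePRAoe (adjusted p = 0.00916 by limma) and -1.57 ± 0.50 in ePRBoe (adjusted p = 0.0968). Mgat2, needed for every complex chain with a second arm, averaged 10.0 ± 0.857 FPKM in ePRAoe, against 15.9 ± 2.96 FPKM in Wnt7acre libraries (-0.61, adjusted p = 0.0214). Mgat5, whose branch carries long lactosamine chains, averaged 8.51 ± 0.917 FPKM in ePRAoe, against 19.3 ± 9.13 FPKM in Wnt7acre libraries (-0.99, adjusted p = 0.0326). Mgat1, which opens the pathway, had -0.85 (adjusted p = 0.0565 by limma), and Mgat4b, the most abundant member at 14.7 FPKM over 9 libraries, -0.42 (adjusted p = 0.226). The Mgat2 and Mgat4a calls were lost without ePRAoe replicate 2 or 3 or Wnt7acre replicate 2 or 3 (adjusted p up to 0.0949 and 0.0639). The Mgat5 call was also lost without ePRBoe replicate 1 or 2 (up to 0.160).

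Chains are lengthened by alternating B3gnt and galactosyltransferase steps. B3gnt5, which starts the lacto-series glycolipids by adding N-acetylglucosamine to lactosylceramide, had 47.0, 31.3 and 15.03 FPKM in ePRAoe libraries and 7.72, 14.6 and 9.80 FPKM in ePRBoe libraries, against 12.7, 2.39 and 6.68 FPKM in Wnt7acre libraries. The ePRAoe libraries were above all others, the lowest by little, and the ePRBoe and Wnt7acre libraries overlapped. The log2 fold change was 2.04 ± 0.22 in ePRAoe (adjusted p = 0.00242 by limma) and 0.55 ± 0.27 in ePRBoe (adjusted p = 0.255). In runs 1, 2 and 3, ePRAoe minus Wnt7acre was 2.07, 2.24 and 1.81. The levels themselves varied between libraries: ePRAoe replicate 3 and Wnt7acre replicate 2, both of run 2, were the lowest of their groups. With 1 library of each of these 2 groups in a run, run and library cannot be told apart. ePRBoe against ePRAoe gave -1.49 ± 0.27 (adjusted p = 0.0706 by limma), with an adjusted p of 0.0425 to 0.605 when 1 library was left out; it passed where ePRAoe replicate 1 or Wnt7acre replicate 1 was the one left out, and with no run term it was -1.36 (0.264).

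B3gnt2, the main enzyme of poly-lactosamine chains, moved against B3gnt5. It averaged 9.01 ± 2.27 FPKM in ePRAoe and 10.8 ± 2.44 FPKM in ePRBoe, against 23.6 ± 2.43 FPKM in Wnt7acre libraries (SD, n = 3 each), and fell in ePRAoe by 1.32 on the log2 scale (adjusted p = 0.00502 by limma). In ePRBoe the difference was -0.82 (adjusted p = 0.0670), with every library below the lowest control. Exons of the annotated gene Gm28048 cover 58.6% of the B3gnt2 exonic length on the same strand, and the sources used here do not say how such reads were assigned. The other 5 tested B3gnt genes passed no test; B3gnt3, which extends O-linked cores, had -0.98 in ePRAoe (adjusted p = 0.126 by limma) and B3gnt7, of keratan sulfate chains, -0.76 (adjusted p = 0.0788). Of 7 B4galt genes, which encode galactosyltransferases, 1 rose in ePRAoe, against 7.2% of all tested genes, and none passed in ePRBoe. B4galt1 averaged 79.8 ± 15 FPKM in ePRAoe and 73.2 ± 7.71 FPKM in ePRBoe, against 46.7 ± 14.2 FPKM in Wnt7acre libraries, with a change of 0.79 in ePRAoe (adjusted p = 0.0102) and 0.51 in ePRBoe (adjusted p = 0.111). The B4galt1 call in ePRAoe was lost without ePRAoe replicate 3 or Wnt7acre replicate 2 (adjusted p up to 0.0533). B4galt6, a lactosylceramide synthase, was near level at 64.4 ± 3.89 FPKM in ePRAoe, 57.1 ± 13.5 FPKM in ePRBoe and 55.8 ± 11.3 FPKM in Wnt7acre libraries (adjusted p = 0.493 in ePRAoe and 0.795 in ePRBoe). None of the 3 tested B3galt genes passed (smallest adjusted p = 0.194 by limma). B3galt6, first by the mean over the 9 libraries though not in ePRBoe, a linker enzyme of glycosaminoglycans, averaged 3.16 ± 0.511 FPKM in ePRAoe and 2.58 ± 0.596 FPKM in ePRBoe, against 3.38 ± 0.625 FPKM in Wnt7acre libraries.

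**Figure D4:**
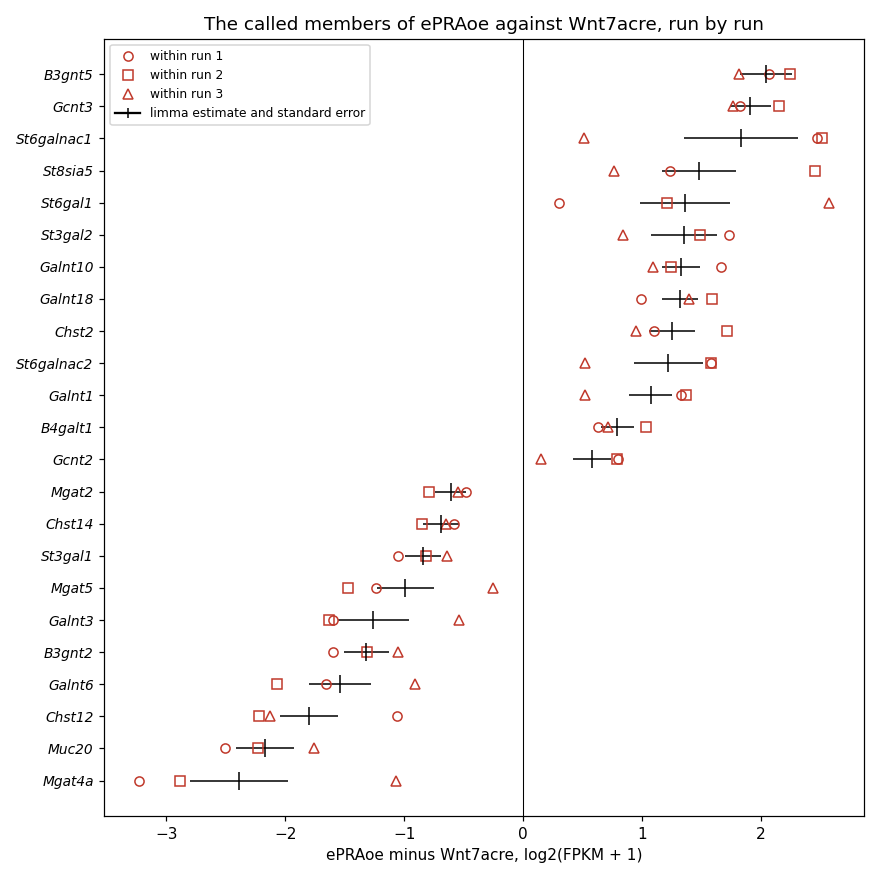
Difference of ePRAoe minus Wnt7acre in log2(FPKM + 1) (horizontal axis) for the 23 genes called in that comparison, within each sequencing run (open symbols, 1 library a group) and as limma's estimate with its standard error (cross). B3gnt5 stays between 1.81 and 2.24 in the 3 runs, whereas Mgat4a and St6gal1 spread widely.

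The fucosyltransferases, which add the fucose of H and Lewis antigens and of N-linked cores, had no call in either genotype. Of 6 tested genes, 0 passed limma's test. Fut4, which makes the Lewis x antigen and had the highest mean over the 9 libraries (24.2 FPKM, with Fut2 at 22.1), averaged 24.4 ± 4.52 FPKM in ePRAoe and 33.9 ± 14.2 FPKM in ePRBoe, against 14.2 ± 2.90 FPKM in Wnt7acre libraries, with log2 fold changes of 0.75 (adjusted p = 0.154 by limma) and 1.10 (adjusted p = 0.126). Every library of both genotypes lay above the controls. Fut9, which makes the same antigen, lay below them in every library: it averaged 4.28 ± 2.65 FPKM in ePRAoe and 3.68 ± 1.46 FPKM in ePRBoe, against 11.8 ± 3.16 FPKM in Wnt7acre libraries (-1.38 in ePRAoe, adjusted p = 0.0551 by limma, and -1.19 in ePRBoe, adjusted p = 0.178). Fut2, which makes the H antigen of secretory epithelia, ranged over 71.6, 21.4 and 8.997 FPKM in ePRAoe libraries and 17.9, 19.4 and 7.28 FPKM in ePRBoe libraries, against 29.0, 14.3 and 8.77 FPKM in Wnt7acre libraries. The run 3 libraries, replicate 1 of ePRAoe and of Wnt7acre, had the highest values of their groups.

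Sialic acid caps are added by the largest set of enzymes here. Among the 16 tested, 5 rose and 1 fell in ePRAoe, against 7.2% higher and 8.98% lower of all tested genes. Those that rose include 3 of the St6gal and St6galnac group, whose summed level was 78.6, 99.6 and 92.0 FPKM in ePRAoe libraries and 108, 72.9 and 79.9 FPKM in ePRBoe libraries, against 46.8, 28.2 and 37.4 FPKM in Wnt7acre libraries. Of the ePRBoe sums, 57.0, 31.2 and 7.10 FPKM came from St6gal2, which passed no test. St6galnac2, which sialylates the first sugar of O-linked chains, averaged 67.2 ± 13.9 FPKM in ePRAoe and 44.8 ± 15.2 FPKM in ePRBoe, against 28.2 ± 6.42 FPKM in Wnt7acre libraries, a change in ePRAoe of 1.22 ± 0.29 (adjusted p = 0.0276 by limma). St6galnac1, which forms the sialyl-Tn antigen, averaged 5.0 ± 2.48 FPKM in ePRAoe and 1.94 ± 1.60 FPKM in ePRBoe, against 0.636 ± 0.565 FPKM in Wnt7acre libraries, a change in ePRAoe of 1.83 ± 0.48 (adjusted p = 0.0410). St6gal1, which sialylates N-linked chains, owed its ePRAoe mean to 1 library: it had 21.5, 1.23 and 2.70 FPKM in ePRAoe libraries, against 2.80, 0.597 and 0.802 FPKM in Wnt7acre libraries. These overlapped, and the call (1.36, adjusted p = 0.0471) was lost without ePRAoe replicate 1 or 3, without any 1 ePRBoe library and without Wnt7acre replicate 1 or 2 (adjusted p up to 0.144). The St6galnac2 call was lost without ePRAoe replicate 2 or 3 or Wnt7acre replicate 2 or 3 (adjusted p up to 0.145), and the St6galnac1 call without these and ePRBoe replicate 1 or 2 (up to 0.193).

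St6galnac4 and St6galnac6, which act on O-linked chains and gangliosides and lie next to each other on chromosome 2, were the sialyltransferases called in ePRBoe. St6galnac4 had 1.295, 0.876 and 1.73 FPKM in ePRAoe libraries and 2.06, 2.27 and 2.13 FPKM in ePRBoe libraries, against 0.552, 0.552 and 0.381 FPKM in Wnt7acre libraries, so that all 3 groups stood apart. It rose by 1.27 ± 0.22 in ePRBoe (adjusted p = 0.0145 by limma); in ePRAoe the difference was 0.61 ± 0.18 (adjusted p = 0.0550) and between ePRBoe and ePRAoe 0.66 (adjusted p = 0.176). St6galnac6 averaged 1.18 ± 0.638 FPKM in ePRAoe and 2.15 ± 0.107 FPKM in ePRBoe, against 0.470 ± 0.0988 FPKM in Wnt7acre libraries, and rose in ePRBoe by 1.24 (adjusted p = 0.0338). The St6galnac4 call was lost without ePRAoe replicate 2, ePRBoe replicate 2 or 3 or Wnt7acre replicate 3 (adjusted p up to 0.0892). The St6galnac6 call was lost without any of these or ePRBoe replicate 1 (up to 0.109), and with quantile normalization or TPM. Both genes were under 1 FPKM in every control library, and stromal and endothelial markers were highest in the same ePRBoe libraries.

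Of the St3gal enzymes, which sialylate terminal galactose, St3gal1 fell and St3gal2 rose in ePRAoe, although both act on the galactose of the O-linked core. St3gal1 averaged 46.4 ± 8.79 FPKM in ePRAoe and 48.5 ± 6.86 FPKM in ePRBoe, against 83.9 ± 16.3 FPKM in Wnt7acre libraries (-0.84 in ePRAoe, adjusted p = 0.0108 by limma, and -0.67 in ePRBoe, adjusted p = 0.0634). St3gal2 averaged 4.54 ± 2.03 FPKM in ePRAoe and 5.19 ± 2.03 FPKM in ePRBoe, against 1.06 ± 0.184 FPKM in Wnt7acre libraries (1.35 in ePRAoe, adjusted p = 0.0169 by limma, and 1.26 in ePRBoe, adjusted p = 0.0599). The libraries of both genotypes lay apart from the controls for both genes. St8sia5, which lengthens sialic acid chains on gangliosides, averaged 3.77 ± 1.3 FPKM in ePRAoe and 2.08 ± 0.240 FPKM in ePRBoe, against 0.868 ± 1.14 FPKM in Wnt7acre libraries, and rose in ePRAoe by 1.48 (adjusted p = 0.0176). The 3 calls were lost without ePRAoe replicate 2 or 3 or Wnt7acre replicate 2 or 3 (adjusted p up to 0.0653 for St3gal1, 0.0998 for St3gal2 and 0.0687 for St8sia5). St6gal2 spread most in ePRBoe, with 57.0, 31.2 and 7.10 FPKM, against 1.03, 11.8 and 6.35 FPKM in ePRAoe and 2.21, 0.451 and 7.89 FPKM in Wnt7acre libraries, and passed no test (adjusted p = 0.340 in ePRBoe by limma).

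Of 6 tested sulfotransferases, Chst2 rose and Chst12 fell in both genotypes and Chst14 fell in ePRAoe. Over all tested genes, 7.2% rose and 8.98% fell in ePRAoe, and 6.41% rose and 2.48% fell in ePRBoe. Chst2, which sulfates N-acetylglucosamine and helps build ligands of L-selectin, had 10.3, 7.19 and 12.2 FPKM in ePRAoe libraries and 14.1, 13.5 and 10.996 FPKM in ePRBoe libraries, against 4.85, 3.06 and 2.83 FPKM in Wnt7acre libraries. Both genotypes stood above the controls and overlapped each other. The change was 1.25 ± 0.19 in ePRAoe (adjusted p = 0.00605 by limma) and 1.93 ± 0.23 in ePRBoe (adjusted p = 0.00608); for ePRBoe the adjusted p was 0.0505 once Wnt7acre replicate 3 was left out, which ended the call. Its promoter was the only 1 of the 5 printed to hold the AGAACA element, which 19.0% of all promoters hold. Any link between the element and the rise was not tested. Chst12, which sulfates chondroitin, had 0.979, 4.17 and 5.49 FPKM in ePRAoe libraries and 3.40, 4.09 and 4.17 FPKM in ePRBoe libraries, against 7.66, 29.3 and 9.75 FPKM in Wnt7acre libraries. No library of either genotype reached the lowest control. The change was -1.80 ± 0.24 in ePRAoe (adjusted p = 0.00439 by limma) and -1.51 ± 0.29 in ePRBoe (adjusted p = 0.0226), the second lost without any 1 ePRBoe library (adjusted p up to 0.0641). Chst14, of dermatan sulfate, had 3.64, 3.21 and 4.55 FPKM in ePRAoe libraries and 5.57, 4.77 and 4.74 FPKM in ePRBoe libraries, against 6.27, 9.03 and 5.28 FPKM in Wnt7acre libraries. Only the ePRAoe libraries lay clear of the controls. It fell in ePRAoe by 0.69 on the log2 scale (adjusted p = 0.0212), a call lost without ePRAoe replicate 2 or 3 or Wnt7acre replicate 2 or 3 (up to 0.0968), and had -0.12 in ePRBoe (adjusted p = 0.732 by limma). Chst11, also of chondroitin and first by the mean over the 9 libraries, though not in ePRBoe or Wnt7acre, averaged 15.4 ± 6.53 FPKM in ePRAoe and 9.73 ± 3.69 FPKM in ePRBoe, against 9.25 ± 2.19 FPKM in Wnt7acre libraries, and passed no test (adjusted p = 0.216 in ePRAoe and 0.844 in ePRBoe).

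The enzymes depend on sugar donors and on other steps of the pathway, described here by 7 gene lists outside the 89. Their counts stand beside the same background, 16.2% of all tested genes called in ePRAoe and 8.89% in ePRBoe, and nothing is read from a list as a whole. For nucleotide sugar synthesis, 3 of 23 tested genes rose and 3 fell in ePRAoe, and 3 rose in ePRBoe. Mpi, which feeds the mannose and fucose donors, rose in both genotypes (1.22, adjusted p = 0.00453, in ePRAoe, and 1.61, adjusted p = 0.00704, in ePRBoe), and Fuk, the fucose salvage kinase, did too (1.37 in ePRAoe, adjusted p = 0.00490, and 1.12 in ePRBoe, adjusted p = 0.0283). Mpi averaged 24.9 ± 6.74 FPKM in ePRAoe and 31.3 ± 2.66 FPKM in ePRBoe, against 9.92 ± 0.989 FPKM in Wnt7acre libraries. Ugp2, which makes UDP-glucose, rose in ePRAoe (1.20, adjusted p = 0.0141), and Pmm1, a phosphomannomutase, fell (-1.13, adjusted p = 0.00885). Gfpt2, of the hexosamine pathway, rose in ePRBoe (1.17, adjusted p = 0.0341 by limma), at low means of 1.53 FPKM in ePRBoe and 0.153 FPKM in Wnt7acre libraries. Of 15 genes for donor transport and sulfate supply, 0 passed limma's test in either genotype, with 4 in ePRAoe and 2 in ePRBoe at an unadjusted p under 0.05. The 2 most abundant were the Golgi transporters Slc35a4 (0.29 in ePRAoe, 0.42 in ePRBoe) and Slc35c1 (0.05 in ePRAoe, -0.32 in ePRBoe), on the log2 scale. Of 29 genes for N-glycan assembly and trimming, 4 fell in ePRAoe, and in ePRBoe 1 rose and 1 fell. The mannosidase Man1a fell in both: it averaged 3.96 ± 1.45 FPKM in ePRAoe and 5.32 ± 0.465 FPKM in ePRBoe, against 18.8 ± 8.85 FPKM in Wnt7acre libraries (-1.95 in ePRAoe, adjusted p = 0.00371 by limma, and -1.26 in ePRBoe, adjusted p = 0.0426). Man2a1 (-0.94, adjusted p = 0.0170), Mogs (-0.63, adjusted p = 0.0400) and Man1a2 (-0.52, adjusted p = 0.0468), which trim glucose or mannose, fell in ePRAoe, and Man2a2, another trimming mannosidase, rose in ePRBoe (1.16, adjusted p = 0.0137).

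Of 18 other glycosyltransferases, 1 rose and 3 fell in ePRAoe, and 1 rose and 1 fell in ePRBoe. Rfng, which lengthens O-fucose on Notch receptors, averaged 38.3 ± 8.30 FPKM in ePRAoe and 39.0 ± 2.96 FPKM in ePRBoe, against 10.3 ± 4.04 FPKM in Wnt7acre libraries (1.84 in ePRAoe, adjusted p = 0.00105 by limma, and 1.91 in ePRBoe, adjusted p = 0.00281). B4galnt1, the ganglioside GM2 synthase, averaged 3.07 ± 0.845 FPKM in ePRAoe and 11.1 ± 4.36 FPKM in ePRBoe, against 25.1 ± 12.7 FPKM in Wnt7acre libraries, and fell in ePRAoe (-2.58, adjusted p = 0.00244). Ugcg, which makes the glucosylceramide that all these glycolipids share, fell in both (-0.98 in ePRAoe, adjusted p = 0.0124, and -0.92 in ePRBoe, adjusted p = 0.0448), and B4galnt4 fell in ePRAoe (-1.39, adjusted p = 0.0351). Of 23 glycosidases and sulfatases, 3 rose and 6 fell in ePRAoe, and 2 rose and 1 fell in ePRBoe. The lysosomal sialidase Neu1 fell in ePRAoe (-0.94, adjusted p = 0.00404), while the cytosolic sialidase Neu2 (1.49, adjusted p = 0.0104) and the fucosidase Fuca2 (0.62, adjusted p = 0.0161) rose. In ePRBoe the sulfatases Sulf1 (2.10, adjusted p = 0.0226) and Galns (0.94, adjusted p = 0.0411) rose. Galns also differed between ePRBoe and ePRAoe, at 6.04 ± 1.13 and 1.87 ± 0.861 FPKM (SD, n = 3 each; 1.73, adjusted p = 0.0369 by limma).

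Of 13 lectins and selectin ligand carriers, 3 rose and 3 fell in ePRAoe, and 4 rose in ePRBoe. The galectin Lgals1, which binds galactose-ended chains, averaged 65.0 ± 7.71 FPKM in ePRAoe and 121 ± 24.5 FPKM in ePRBoe, against 27.2 ± 4.27 FPKM in Wnt7acre libraries (1.23 in ePRAoe, adjusted p = 0.00542 by limma, and 2.26 in ePRBoe, adjusted p = 0.00345). Cd34, a sialomucin of endothelium and stroma, rose in both (1.03 in ePRAoe, adjusted p = 0.0401, and 2.10 in ePRBoe, adjusted p = 0.0121). Selplg, the P-selectin ligand of leukocytes, fell in ePRAoe (-0.84, adjusted p = 0.0166) and rose in ePRBoe (1.15, adjusted p = 0.0177), and differed between ePRBoe and ePRAoe by 1.99 (adjusted p = 0.0224). The sialomucin Cd164 fell in ePRAoe (-0.74, adjusted p = 0.00993). The hyaluronan receptor Cd44 was called higher in ePRBoe (1.06, adjusted p = 0.0265 by limma), although the control libraries spanned all ePRBoe values. It had 6.345, 7.34 and 6.80 FPKM in ePRBoe libraries, against 9.68, 6.64 and 2.475 FPKM in Wnt7acre libraries. The lowest of these controls was the only control of run 1. Stromal marker sums were higher in both genotypes and immune marker sums lower in ePRAoe than in ePRBoe, and their part in these lectin changes was not tested. Of 14 Muc1 partners and proteases that can release Muc1, Gsk3b, a kinase of Muc1, rose in ePRAoe (0.52, adjusted p = 0.0347 by limma). Itga3, an integrin subunit (-0.88, adjusted p = 0.0189), and Icam1, a ligand of Muc1 (-0.75, adjusted p = 0.0446), fell. The Icam1 call was lost whichever library was left out (adjusted p of 0.057 to 0.174 by limma). Its means were 0.816 FPKM in ePRAoe and 2.06 FPKM in Wnt7acre libraries. In ePRBoe 0 of the 14 passed limma's test, with 2 at an unadjusted p under 0.05. Among these named pathway calls, those of Mpi, Fuk, Man1a, Rfng, B4galnt1, Neu1, Lgals1 and Cd164 in ePRAoe and of Rfng and Lgals1 in ePRBoe held with any 1 library left out. All other calls of the 7 lists named here were lost without at least 1 library, with adjusted p of 0.0503 to 0.5. Those of Gsk3b, Man1a2 and Cd34 in ePRAoe and of Man1a, Ugcg and Galns in ePRBoe were each lost without any 1 of 7 libraries.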

How the data were processed

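The authors deposited 1 table of FPKM values per gene for 9 RNA-seq libraries of laser-captured luminal epithelium, 3 per genotype. The submitters' processing notes name mm10, STAR 2.5.2b, featureCounts 1.5.0-p1 of Subread, edgeR 3.28.0 and limma 3.42.2; no source used here gives the annotation, gene lengths or strand setting. FPKM keeps no read depth, so depth is unknown and low genes are imprecise.

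FPKM plus a pseudocount of 1 was taken to log2 and fitted with limma 3.58.1 in R 4.3.3 (variance trend, genotype and sequencing run as terms, all 9 libraries, 4 residual degrees of freedom) for the 12347 genes that reached 1 FPKM in 3 or more libraries, with two-sided tests and Benjamini-Hochberg adjustment over them; called means an adjusted p under 0.05. Run 1 held ePRAoe replicate 2, all ePRBoe libraries and Wnt7acre replicate 3; run 2 held ePRAoe replicate 3 and Wnt7acre replicate 2; run 3 held ePRAoe replicate 1 and Wnt7acre replicate 1. ePRBoe is therefore compared with Wnt7acre and with ePRAoe mainly within run 1, where 1 library of each stands. The fit was run on simulated data with changes placed in ePRAoe alone and no difference between runs. That check does not cover the ePRBoe comparisons.

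Gene positions and overlaps come from GENCODE M21, matched by symbol for 88 of the 89 genes; promoters come from RefSeq. The members, pathway lists and markers were chosen with earlier results of these data known. Named genes are Muc1, B3gnt5, every gene called in a comparison, the most abundant of each family and those with a mean of at least 30 FPKM; other genes named were chosen after their values were seen. Values of every library are given for Muc1, B3gnt5 and the 5 named genes with the largest moderated t in each comparison. Alternatives were the pseudocount, filter, scaling, model terms, run 1 alone and each library left out. Pathway lists are described by their counts and up to 4 called genes for each comparison; 1 such gene is not reported here.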

Additional observations from a re-analysis of the deposited data

How the results depend on the processing

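In ePRAoe the 13 genes called higher and 10 called lower became 8 higher with a mean of at least 5 FPKM. They became 5 and 3 with only the 2 groups compared. Leaving out 1 library gave 5 to 13 higher and 3 to 18 lower. Over all genes the 1998 calls became 681 with 2 groups and 1063 in run 1, and 723 to 2705 with 1 library left out. In ePRBoe the 5 higher and 1 lower became 3 higher with a mean of at least 5 FPKM. They became 8 and 6 with no run term or only the 2 groups. With 1 library left out there were 1 to 9 higher and 0 to 7 lower. With median-of-ratios scaling the split was 5 higher and 3 lower, and with quantile normalization 4 and 3; these scalings moved the median change of all genes to -0.03 in ePRBoe, against 0.10 without them, and to -0.02 and -0.03, against 0.15, for ePRBoe against ePRAoe. Over all genes the 1098 ePRBoe calls became 653 with a mean of at least 5 FPKM, 1786 with no run term and 2203 with 2 groups, and 231 to 1604 with 1 library left out.

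Between ePRBoe and ePRAoe, 1 gene was called lower with median-of-ratios scaling, and 1 library left out gave 0 to 1 higher and 0 to 3 lower. The 40 calls over all genes became 19 with no filter, 22 with median-of-ratios, 15 with quantile normalization, 7 with no run term, 0 with 2 groups and 447 in run 1, and 0 to 576 with 1 library left out. Of the single calls in ePRAoe, the 2-group fit lost B4galt1, Chst14, Galnt1, Galnt3, Galnt6, Mgat2, Mgat5, St3gal1, St3gal2, St6gal1 and St8sia5 besides B3gnt5, Chst12, Galnt18 and Gcnt2; run 1 alone lost B4galt1, Chst14, Galnt3, Galnt6, Mgat2, St3gal1, St3gal2, St6gal1, St6galnac1, St6galnac2 and St8sia5 besides Chst2, Chst12 and Gcnt2; no run term lost B4galt1, Chst14, Mgat5 and St6gal1 besides Chst12; no filter lost St6gal1; and quantile normalization lost St6galnac1. In ePRBoe, Chst12 was lost with no run term and with the 2-group fit, and St6galnac6 in run 1 alone. Muc1 in ePRBoe ranged over -0.43 to 1.92 with 1 library left out and turned to -0.39 with no run term, with the replicate block or with only the 2 groups, and to -0.43 in run 1 or without ePRAoe replicate 2; against ePRAoe it ranged over -0.10 to 2.26 with 1 library left out and turned to -0.10 without ePRAoe replicate 2. Pgr in ePRBoe ranged over 1.92 to 2.56 with 1 library left out and lost its call without ePRAoe replicate 2 (adjusted p = 0.0561 by limma), ePRBoe replicate 2 (0.0508) or 3 (0.0526) or Wnt7acre replicate 3 (0.186). Its difference between ePRBoe and ePRAoe ranged over -0.39 to 0.25 and turned to 0.25 without ePRAoe replicate 2 and to 0.10 without ePRAoe replicate 3 or Wnt7acre replicate 2. The cause was not tested, beyond fewer libraries or genes in some fits and the missing run term in the 2-group fits.

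Replicate numbers did not pair the libraries: same-numbered ePRAoe and Wnt7acre libraries deviated together with r of 0.171, -0.0343 and 0.0604 across genes. With the replicate block in place of the run, 7 genes were called higher and 7 lower in ePRAoe (1113 over all genes), 8 and 4 in ePRBoe (1437), and 0 between ePRBoe and ePRAoe (4); it lost the ePRAoe calls of B3gnt5 (adjusted p = 0.0530 by limma), B4galt1, Chst14, Galnt1, Galnt3, Gcnt2, Mgat5, St6gal1 and St6galnac1. No member outside the 68 was called in any comparison with no filter. FPKM alone leave the precision of genes near 1 FPKM unknown.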
